A study of Mus musculus with 24 samples.

Results

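The 50 genes described here encode proteins that build and run the DNA replication machinery, from the complex that marks an origin to the enzymes that finish the daughter strands behind the fork. They were taken by gene symbol from a table of 53465 genes. All 50 were found, and all 50 were among the 14249 genes that passed the filter on low counts. They were measured by RNA sequencing in RN2, a line of murine acute myeloid leukaemia; all groups share its Mll-Af9 fusion and NrasG12D. Cells had been transduced with retroviruses for 1 of 3 doxycycline-inducible hairpins: the control shRen713 (clones 2 and 7), shOgdh346 (clones 1 and 5) or shOgdh2081 (clones 3 and 5). The last 2 hairpins target Ogdh, a subunit of the 2-oxoglutarate dehydrogenase complex. RNA was taken at day 0, without treatment, and at day 4 of doxycycline. Each of the 6 clones had 2 libraries a day, which makes 24 libraries in 6 groups of 4. Each hairpin is thus modelled by 2 clonal isolates of 1 line grown in culture, and no wild-type cells or other lines enter the comparisons.

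Replication starts in steps. The origin recognition complex (ORC) binds DNA in G1, and Cdc6 and Cdt1 then load the ring-shaped MCM helicase around it, while geminin holds Cdt1 back later in the cycle. In S phase the kinase Cdc7 with its partner Dbf4, and the factors Cdc45, GINS and Mcm10, turn the loaded ring into a moving helicase. Polymerase alpha with primase lays the first nucleotides, polymerase epsilon extends the leading strand and polymerase delta the lagging strand, held to DNA by the sliding clamp PCNA that the RFC complex loads. RPA coats the single strands, Fen1 and Lig1 trim and join Okazaki fragments, the chromatin assembly factor CAF-1 places histones on the new DNA, and Timeless, Tipin and Claspin keep the fork together. Many of these genes are known to be transcribed towards S phase under E2F factors, and dividing cells need this machinery.

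E2F factors are known regulators of this machinery, so the letters of the promoters come first. RefSeq (GRCm38.p6) gave a window of 300 bases, 250 before to 50 after the start site, for 41 of the 50 genes. The letters TTTGGCGC or TTTCCCGC, searched on both strands as 1 E2F class (each printed window with the letters holds 1 match), were found in 14 of the 41 windows (34.1%). The same letters were in 3.1% of the 9947 tested genes with a window and in 2.0% of all 20049 windows. CCAAT was in 56.1% of members' windows against 39.3% of tested genes, TTTGAA in 14.6% against 12.1%, and CACGTG in 12.2% against 10.2%. A match is a string of letters, not a shown binding site. The 250 bases before the start site are given below for 3 genes whose windows hold the E2F letters, in capitals, and 3 whose windows do not. Hells had the smallest p of all 50 genes, Pola1 fell strongly and Gins3 weakly. Mcm2 fell strongly with no such letters in its window, and Chaf1b and Orc4 are the members whose net change did not pass the test. The windows are chr19:38930740-38930989 on the plus strand, chrX:93632156-93632405 on the minus strand, chr8:95633309-95633558 on the plus strand, chr6:88898781-88899030 on the minus strand, chr16:93883651-93883900 on the plus strand and chr2:48950235-48950484 on the minus strand.
Hells: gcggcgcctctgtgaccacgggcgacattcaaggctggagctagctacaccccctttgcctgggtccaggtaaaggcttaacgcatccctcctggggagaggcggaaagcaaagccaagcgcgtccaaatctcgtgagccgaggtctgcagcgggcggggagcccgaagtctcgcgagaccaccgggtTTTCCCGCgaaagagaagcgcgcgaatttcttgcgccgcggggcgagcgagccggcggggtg
Pola1: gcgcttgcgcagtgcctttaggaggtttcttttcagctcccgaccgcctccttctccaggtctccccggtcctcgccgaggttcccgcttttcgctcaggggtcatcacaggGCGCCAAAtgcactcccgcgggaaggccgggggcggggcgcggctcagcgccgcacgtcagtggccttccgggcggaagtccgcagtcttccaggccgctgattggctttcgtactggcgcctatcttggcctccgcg
Gins3: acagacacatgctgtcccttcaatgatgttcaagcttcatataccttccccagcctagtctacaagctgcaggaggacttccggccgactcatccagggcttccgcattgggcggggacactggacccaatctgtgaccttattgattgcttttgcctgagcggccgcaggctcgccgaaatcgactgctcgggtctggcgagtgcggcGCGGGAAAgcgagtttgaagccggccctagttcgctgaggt
Mcm2: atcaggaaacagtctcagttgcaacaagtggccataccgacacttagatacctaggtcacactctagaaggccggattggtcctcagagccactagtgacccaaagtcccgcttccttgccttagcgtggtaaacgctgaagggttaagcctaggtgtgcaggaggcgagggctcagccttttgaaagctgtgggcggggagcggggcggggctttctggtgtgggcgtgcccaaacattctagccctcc
Chaf1b: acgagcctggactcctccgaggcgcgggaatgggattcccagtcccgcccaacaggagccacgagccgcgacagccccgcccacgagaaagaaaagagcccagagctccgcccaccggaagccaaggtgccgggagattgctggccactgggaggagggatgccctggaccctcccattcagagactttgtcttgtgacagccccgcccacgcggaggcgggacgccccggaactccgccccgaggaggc
Orc4: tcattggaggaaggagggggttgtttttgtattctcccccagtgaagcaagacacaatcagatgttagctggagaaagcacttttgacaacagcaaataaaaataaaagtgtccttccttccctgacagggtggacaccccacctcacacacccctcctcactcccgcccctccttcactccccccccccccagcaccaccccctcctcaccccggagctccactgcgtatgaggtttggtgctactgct
The capitals begin at position -62 from the start site in Hells, at -138 in Pola1 and at -41 in Gins3. Genes with the letters had a median net change (defined below) of -1.10 on the log2 scale (14 genes) and those without of -0.84 (27 genes), given as a description only. The RefSeq start site lies within 500 bases of the gene start in the deposited table for 39 of the 41; it is 539 bases away in Mcm7, whose window holds the letters, and 6001 in Timeless, whose window does not. Without these 2 the medians were -1.10 (13 genes) and -0.84 (26 genes).

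Total counts ran from 7209186 to 20705468 per library. Levels are CPM, counts scaled to library size with TMM factors. Ogdh stood at 228 ± 27.4 CPM (SD, n = 2 clones) in the control at day 0 and 225 ± 27.7 at day 4. With shOgdh346 it was 138 ± 13.8 at day 0 and 44.7 ± 14.2 at day 4, and with shOgdh2081 187 ± 30.1 and 52.3 ± 23.6. Its net change was -1.76 ± 0.18 (SE, adjusted p = 4.00e-04). Leukaemia markers were present: all 6 listed genes, Mpo, Itgam, Ptprc, Kit, Hoxa9 and Meis1, passed the filter, and the net change was called lower in 2 of them and higher in 2. Of 8 erythroid, 6 T-cell and 5 B-cell markers, 7, 5 and 3 were under 1 CPM in every library. Among 10 stromal, endothelial and epithelial markers 6 were, and Pdgfrb was the highest. Hba-a2, Hbb-bs, Cd3e and Col1a2 had 0 counts in every library. Net changes were called higher in 1 erythroid and 2 stromal, endothelial or epithelial markers. The summed B-cell list was at most 0.849 CPM in the control and up to 16.6 at day 0 and 14.5 at day 4 in the Ogdh libraries. Cd79b made up nearly all of it in clone 5 of shOgdh346, at 14.9 and 16.3 CPM at day 0 and 14.2 and 12.9 at day 4, and was at most 0.801 CPM in each of the other clones. The summed level of the stromal, endothelial and epithelial list was 5.44 to 23.6 CPM in the control and 8.86 to 77.2 in the Ogdh libraries at day 4, and 6.32 to 28.3 and 3.89 to 32.2 at day 0. The part of these markers in the results was not tested. In bulk RNA, fewer cells of a type and less RNA per cell cannot be told apart.

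The replication genes were lower at day 4 than at day 0 in all 4 Ogdh clones: the log2 change was negative in 49 of the 50 genes in both clones of shOgdh346 and in clone 3 of shOgdh2081, and in 48 in clone 5 of shOgdh2081. In the control it was negative in 28 genes in clone 2 and 30 in clone 7, with medians of -0.05 and -0.07. The 50 genes held 0.820% to 0.862% of all counts in control libraries at day 0 and 0.797% to 0.853% at day 4. Their share was 0.781% to 0.820% with shOgdh346 at day 0 and 0.328% to 0.370% at day 4. With shOgdh2081 the share was 0.740% to 0.853% at day 0 and 0.359% to 0.484% at day 4. The day 4 ranges of either Ogdh hairpin lie wholly under that of the control, whereas the day 0 ranges overlap or meet.

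A net change is the log2 change from day 0 to day 4 with an Ogdh hairpin minus the same change with the control hairpin, tested with edgeR's quasi-likelihood test with the clone as a block and Benjamini-Hochberg adjustment over all genes tested (threshold 0.05). The p-values describe the spread among these clones. For the mean of both Ogdh hairpins, 48 of the 50 genes were lower and 0 higher, against 19.8% of all genes tested that were lower and 17.9% that were higher. The median net change was -0.98, which leaves 50.6% of the level, where the median of all genes was 0.00. In 22 genes the net change was below -1. With shOgdh346 alone 48 were lower (18.4% of all genes) with a median of -1.08, and with shOgdh2081 alone 46 (14.2% of all genes) with a median of -0.88. The hairpins share the control libraries, so these counts are not independent. The 4 genes not called with shOgdh2081 were Orc3, Orc4, Fen1 and Chaf1b.

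Within single hairpins, day 4 minus day 0, 48 genes fell with shOgdh346 (29.3% of all genes) and 48 with shOgdh2081 (25.9% of all genes). The exceptions were Orc4 and Gins3 with the first and Orc4 and Cdc7 with the second. In the control, 2 genes fell, Cdt1 by 0.43 ± 0.10 and Pola1 by 0.38 ± 0.09 (adjusted p = 0.0403 and 0.0333), and 1 rose, Cdc7, by 0.53 ± 0.13 (adjusted p = 0.0444). Of all genes, 2.44% fell and 4.44% rose in the control. These 3 control calls were lost when the day 0 libraries numbered 2 were used alone, and also without the clone block. At day 0 itself, Ogdh and control clones differed in 0 genes in either direction by edgeR (0 and 0% of all genes), also at an unadjusted p under 0.05, where 272 of all genes passed, and in 0 by DESeq2 and limma-voom. The day 0 differences ran from -0.20 (Fen1) to 0.11 (Orc3), with 36 of the 50 negative and a median of -0.07. Over all genes 51.1% were negative and the median was 0.0.

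Levels at day 4 gave the same picture by library. In 49 genes all 8 Ogdh libraries lay below all 4 control libraries, which held for 18.8% of all genes. At day 0 this held for 0 of the 50 (0.337% of all genes). Orc4 was the exception at day 4, with all 8 Ogdh libraries above the control. As a fitted difference of levels at day 4, 49 genes were lower (21.2% of all genes) with a median of -1.05. When each Ogdh clone was set against each control clone, the change was lower in all 8 pairs for 49 genes, against 29.2% of all genes. In Chaf1b 1 of these pairs, control clone 7 and clone 3 of shOgdh2081, is equal after rounding (-0.30 in both).

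**Figure D1:**
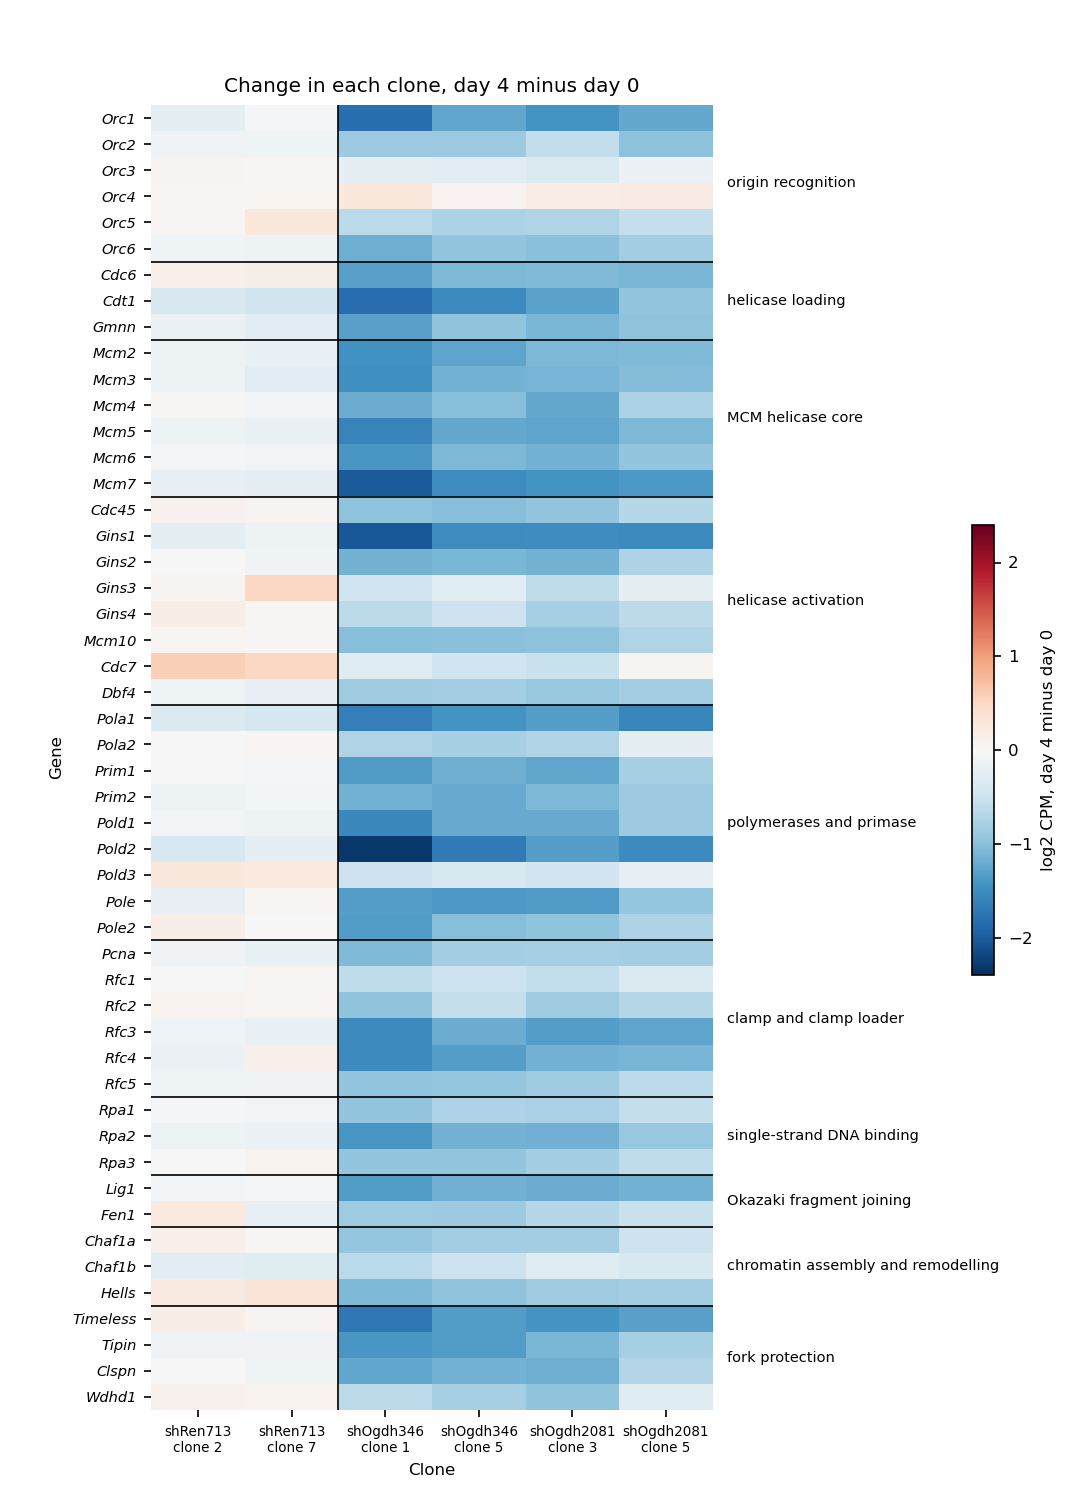
Change of each of the 50 genes from day 0 to day 4 in each clone, in log2 CPM (colour), with genes in rows by role and clones in columns. The 4 Ogdh columns are blue in nearly every row (medians -0.80 to -1.15), the 2 control columns are pale (medians -0.05 and -0.07), and Orc4 is the row without blue in the Ogdh columns.

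Of the 6 ORC subunits, which mark origins, 5 fell and Orc4 did not. Orc1, the ATPase subunit that cycles with the cell cycle, had the largest fall (-1.31 ± 0.18, adjusted p = 7.89e-04), and Orc3 the smallest (-0.31 ± 0.09, adjusted p = 0.0288). The call of Orc3 was lost in 7 of 42 alternatives, among them leaving out either control clone, where fewer of all genes were called as well. Orc6 had the smallest p of the group. Its 12 day 0 libraries ran from 85.6 to 108 CPM with a median of 97.6. At day 4 its control libraries were at 93.8, 89.7, 86.5 and 90.3 CPM, and the 8 Ogdh libraries at 42.4 to 55.7 with a median of 49.9, so the groups do not overlap. The net change of Orc6 was -0.87 ± 0.10 (adjusted p = 3.28e-04). Orc2 and Orc5 had net changes of -0.74 ± 0.11 and -0.81 ± 0.12.

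Orc4, an ATPase-fold subunit of the complex (ENSMUSG00000026761, GRCm38 chromosome 2, 48902824 to 48950277), was not lower at day 4. Its control libraries were at 43.1, 42, 41.4 and 45.4 CPM at day 0 and 43.5, 44.7, 45.3 and 42.8 at day 4. Libraries with shOgdh346 were at 41.3, 44.9, 48.2 and 41.3 CPM at day 0 and 54.8, 51.3, 48.2 and 45.4 at day 4. With shOgdh2081 they were at 52.7, 48.0, 44.6 and 43.1, then 59.4, 54.5, 51.6 and 50.2. The Ogdh libraries at day 4 thus start just above the highest control library, and clone 3 of shOgdh2081 was already high at day 0. The net change was 0.13 ± 0.10 (adjusted p = 0.351) and the difference in level at day 4 was 0.21 ± 0.09 (adjusted p = 0.0843). Across the 42 alternative settings the net change of Orc4 ran from 0.05 to 0.21 and passed the test in 0 of them.

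All 3 genes of helicase loading fell. Cdc6, which joins ORC to recruit the helicase (ENSMUSG00000017499, GRCm38 chromosome 11, 98907801 to 98923940), ran from 94.7 to 126 CPM at day 0 (median 109). At day 4 the control libraries of Cdc6 were at 137, 131, 125 and 120 CPM and the 8 Ogdh libraries between 43.6 and 55.3. The groups lie far apart. The net change was -1.26 ± 0.10 (adjusted p = 5.77e-05). Gmnn, geminin, had a net change of -0.88 ± 0.11 (adjusted p = 5.14e-04).

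Cdt1, the helicase loading factor that is destroyed in S phase (ENSMUSG00000006585, GRCm38 chromosome 8, 122568015 to 122573554), differed already between library pairs at day 0. Its 4 control libraries were at 204, 152, 193 and 153 CPM at day 0 and at 133, 142, 123 and 132 at day 4. With shOgdh346 the values were 186, 144, 170 and 143 CPM, then 49.1, 51.2, 53.4 and 58.2. With shOgdh2081 they were 142, 142, 167 and 143, then 58.7, 59.4, 82.3 and 81.2. In 5 of the 6 clones the replicate 1 library at day 0 was the higher of its pair, and clone 5 of shOgdh2081 kept more Cdt1 at day 4 than the other Ogdh clones. The mean net change was -0.97 ± 0.13 (adjusted p = 5.95e-04).

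Every subunit of the MCM helicase ring, Mcm2 to Mcm7, fell, with net changes from -1.0 (Mcm3) to -1.36 (Mcm7). Among the 5 role groups of 6 or more genes this range was the narrowest. Mcm2, with the smallest p (ENSMUSG00000002870, GRCm38 chromosome 6, 88883474 to 88898780), ran from 411 to 511 CPM at day 0 (median 451). At day 4 its control libraries were at 467, 467, 393 and 410 CPM. Libraries of shOgdh346 were then at 163, 174, 176 and 174 CPM, and those of shOgdh2081 at 201, 205, 229 and 233. In Mcm2 the net changes of the 2 Ogdh hairpins did not differ past the threshold, as given below. The net change of Mcm2 was -1.07 ± 0.10 (adjusted p = 1.28e-04). Mcm4, with the largest p of the group, had control libraries at 455, 441, 392 and 395 CPM and Ogdh libraries at 174 to 266 (median 191) at day 4, with a net change of -1.03 ± 0.14 (adjusted p = 5.99e-04).

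The 8 factors of helicase activation all fell, least evenly among the GINS subunits. Gins1 had a net change of -1.47 ± 0.15, Gins2 of -0.99 ± 0.13, Gins4 of -0.74 ± 0.11 and Gins3 of -0.67 ± 0.18. Cdc45, the helicase partner with the smallest p of the group, ran from 131 to 163 CPM at day 0 (median 148). At day 4 Cdc45 was at 162, 154, 165 and 158 CPM in the control and at 68.1 to 99 (median 74.5) in the Ogdh libraries, with a net change of -0.99 ± 0.10 (adjusted p = 1.80e-04). Mcm10, which helps start the helicase, had a net change of -0.98 ± 0.10, and Dbf4, the activating partner of Cdc7, one of -0.71 ± 0.09.

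In Gins3 and Cdc7 part of the net change came from the control. Gins3 control libraries were at 23.9, 28.7, 18.9 and 20 CPM at day 0 and 27.2, 28.1, 28 and 27 at day 4, a log2 change of 0.50 in clone 7 and 0.06 in clone 2. The 8 Ogdh libraries were at 13.7 to 19.1 CPM at day 4 (median 17.4), below the control but close to the lowest day 0 library (18.8). The net change of Gins3, -0.67 ± 0.18 (adjusted p = 0.0172), was -0.46 and no longer called without control clone 7. Cdc7 control libraries were at 36.7, 48.8, 36.0 and 47.7 CPM at day 0 and 63.9, 64.8, 55.9 and 58.4 at day 4. Cdc7 with shOgdh346 went from 37.0, 48.9, 38.7 and 50 CPM to 30.8, 36.7, 31.8 and 35.8, and with shOgdh2081 from 31.9, 42.9, 31.3 and 42.1 to 26.9, 26.3, 38.0 and 39.6. The log2 change of Cdc7 in clone 5 of shOgdh2081 was 0.07, and the mean net change over both hairpins was -0.84 ± 0.16 (adjusted p = 0.00371).

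**Figure D2:**
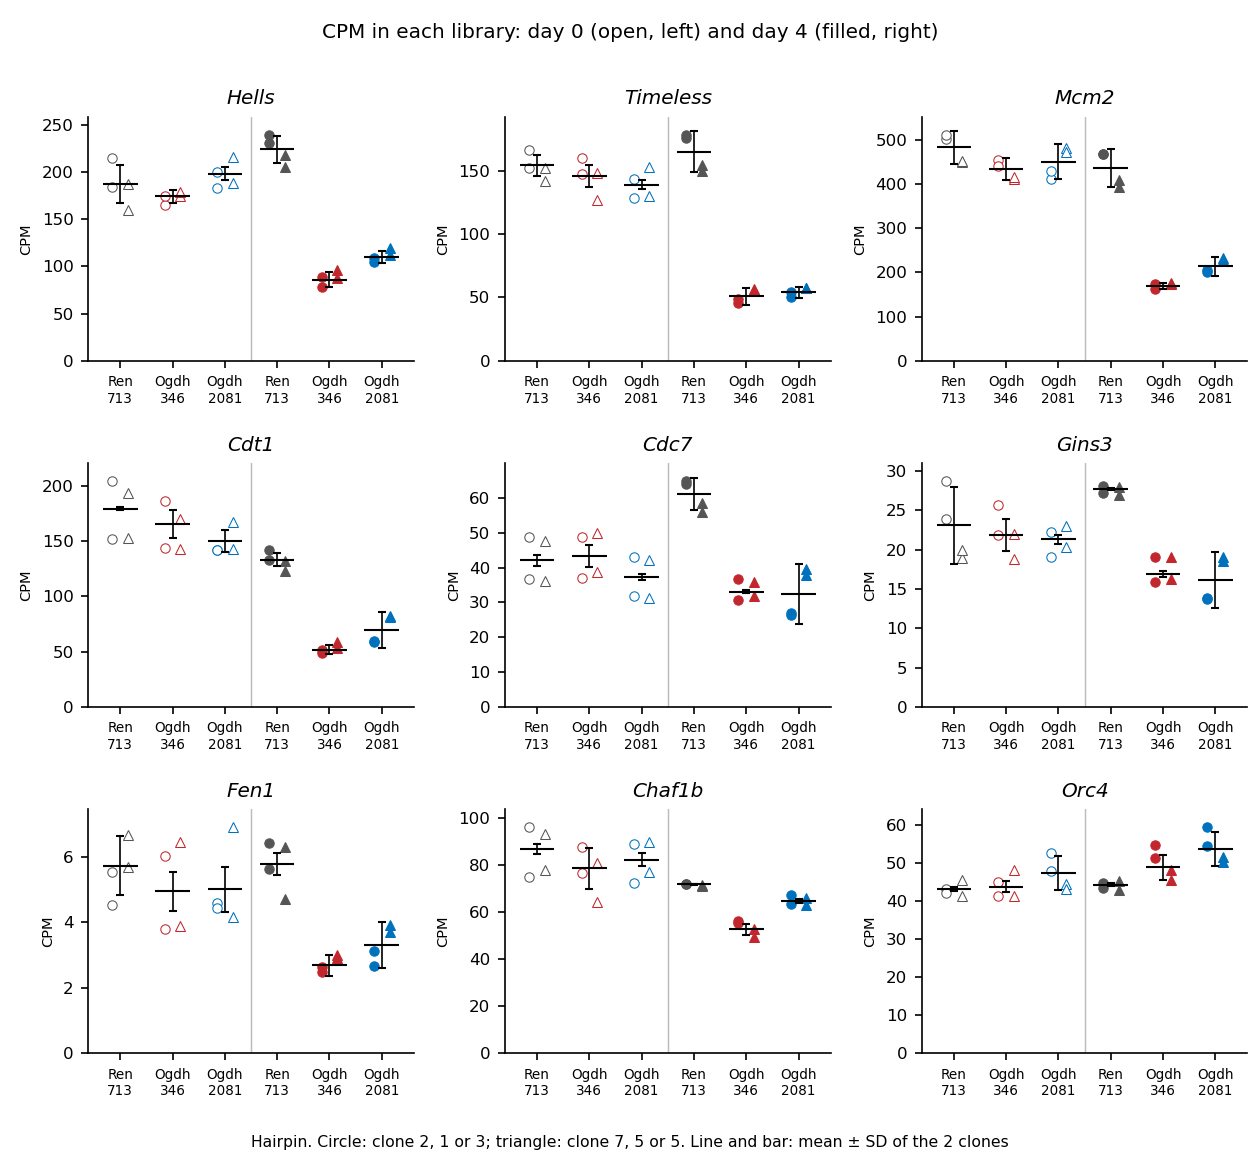
CPM of 9 of the genes in each library, by hairpin, with day 0 open on the left and day 4 filled on the right of each panel; symbols are clones, and the line with its bar is the mean ± SD of the 2 clones. Hells, Timeless, Mcm2 and Cdt1 drop in all Ogdh libraries, the control libraries are higher at day 4 in Cdc7, and Orc4 and Chaf1b are the 2 genes whose net change did not pass the test.

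All 9 polymerase and primase genes fell, with a median of -1.11. Pola1, the catalytic subunit of polymerase alpha, had the smallest p. Its control libraries were at 131, 128, 122 and 114 CPM at day 0 and at 107, 98.4, 92.1 and 86.3 at day 4. The 8 Ogdh libraries were at 39.3 to 50.9 CPM at day 4 (median 47.7), against 118 to 146 in the same clones at day 0. The net change of Pola1 was -1.11 ± 0.11 (adjusted p = 1.58e-04). Prim1 and Prim2, the primase subunits, had net changes of -1.12 ± 0.13 and -0.98 ± 0.10, and Pole and Pole2, of the leading-strand polymerase, of -1.17 ± 0.13 and -1.10 ± 0.14.

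Net changes varied between subunits of 1 polymerase. Pold2, an accessory subunit of polymerase delta, had a net change of -1.40 ± 0.16 (adjusted p = 3.84e-04) and Pold1, its catalytic subunit, one of -1.12 ± 0.12, while Pold3 had -0.63 ± 0.10. Pold2 libraries of shOgdh346 at day 4 were at 14.9, 17.4, 26 and 25 CPM, those of shOgdh2081 at 34.7, 32.9, 28.4 and 28.6, and those of the control at 64.0, 65.6, 79.1 and 80.4. Pola2, the regulatory subunit of polymerase alpha, had control libraries at 90.5, 97.1, 90.7 and 96.7 CPM and shOgdh346 libraries at 44.8, 49, 49.5 and 52.6 at day 4. With shOgdh2081, clone 3 was at 51.4 and 53.2 CPM for Pola2 and clone 5 at 72.6 and 79.4, between the others and the control. The mean net change of Pola2 was -0.64 ± 0.13 (adjusted p = 0.00529). This call was lost without control clone 7 or without the clone block, settings in which fewer of all genes were called as well. Pold3 lost its call without the block (adjusted p = 0.0568). The differences between subunits were not tested.

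The clamp and clamp loader genes fell in 6 of 6 cases. Pcna, the clamp itself, had a net change of -0.74 ± 0.10 (adjusted p = 7.06e-04). Rfc4 had the smallest p of the group: its control libraries at day 4 were at 44.7, 53.4, 53.8 and 52.7 CPM and the Ogdh libraries at 16.1 to 24.2 (median 20.9). Its net change was -1.26 ± 0.12 (adjusted p = 1.59e-04). Rfc1, the large subunit of the loader, kept more: 204, 184, 186 and 187 CPM at day 4 in the control and 119 to 145 (median 126) in the Ogdh libraries, a net change of -0.54 ± 0.10 (adjusted p = 0.00286). Rfc2, Rfc3 and Rfc5 lay between, at -0.84 ± 0.12, -1.19 ± 0.12 and -0.74 ± 0.10.

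All 3 RPA subunits, which coat single-stranded DNA, fell. Rpa2, the subunit phosphorylated under replication stress, was at 124, 131, 118 and 116 CPM at day 4 in the control and at 50.9 to 70.1 (median 54.4) in the Ogdh libraries, a net change of -1.02 ± 0.11 (adjusted p = 2.60e-04). Rpa1, the large DNA-binding subunit, was at 258, 250, 253 and 236 CPM against 143 to 182 (median 151), a net change of -0.70 ± 0.10 (adjusted p = 0.00105). Rpa3 had a net change of -0.87 ± 0.11.

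Of the genes that finish Okazaki fragments, Lig1, the replicative DNA ligase, had the smaller p. Its day 0 libraries ran from 198 to 266 CPM (median 218), its control libraries at day 4 were at 241, 240, 209 and 208, and its Ogdh libraries at 88.5 to 123 (median 93.2). The net change was -1.14 ± 0.09 (adjusted p = 7.57e-05). Fen1, the flap endonuclease (ENSMUSG00000024742, GRCm38 chromosome 19, 10199132 to 10204169), was the least abundant of the 50 genes per kilobase (2.36 CPM per kb in the control at day 0) and was called weakly: -0.76 ± 0.25 (adjusted p = 0.0365). Control libraries of Fen1 were at 4.53, 5.54, 6.65 and 5.70 CPM at day 0 and 6.41, 5.64, 4.72 and 6.29 at day 4, and the Ogdh libraries at day 4 at 2.47 to 3.92 (median 2.95). In the GENCODE M21 annotation 84.2% of the exon bases of Fen1 are shared with other genes, 78.8% with the antisense gene Gm10143. The part of this overlap in its low level was not tested. The call of Fen1 was lost in 17 of 42 alternatives, among them DESeq2, no clone block and the filter at 5 CPM (adjusted p up to 0.41). Without control clone 2 the net change of Fen1 was -0.56 and without clone 7 -1.0, neither called, and with libraries numbered 1 alone it was -0.43.

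In chromatin assembly and remodelling, Hells and Chaf1a fell and Chaf1b did not pass. Hells, a helicase-like remodeller linked to DNA methylation (ENSMUSG00000025001, GRCm38 chromosome 19, 38930915 to 38971051), had the smallest p of the 50 genes. Its control libraries were at 184, 215, 160 and 187 CPM at day 0 and 231, 239, 218 and 205 at day 4. With shOgdh346 it went from 165, 174, 174 and 179 CPM to 88.3, 78.5, 95.8 and 87.3, and with shOgdh2081 from 183, 200, 188 and 216 to 109, 105, 119 and 112. The highest Ogdh library at day 4, 119 CPM, lay under the lowest value of any other group, 160 CPM. The net change was -1.20 ± 0.09 (adjusted p = 5.38e-05). The control change of Hells was 0.27 ± 0.07 (adjusted p = 0.0571), which adds to the net value. Chaf1a, the large CAF-1 subunit, had a net change of -0.84 ± 0.11 (adjusted p = 6.15e-04).

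Chaf1b, the middle CAF-1 subunit (ENSMUSG00000022945, GRCm38 chromosome 16, 93883901 to 93906115), fell from day 0 to day 4 with shOgdh346 (-0.57 ± 0.08) and with shOgdh2081 (-0.35 ± 0.08), but its net change did not pass the test. Control libraries were at 96.1, 75, 93.4 and 77.8 CPM at day 0 and 72.0, 71.8, 71.1 and 71.4 at day 4. With shOgdh346 the values at day 4 were 55.3, 56.3, 52.8 and 49.5 CPM and with shOgdh2081 67.4, 63.5, 66.2 and 63.0. All 8 were below the control, though those of shOgdh2081 only slightly. The level difference at day 4 was -0.30 ± 0.07 (adjusted p = 0.0126). The control change was -0.28 ± 0.08 (adjusted p = 0.0617) and the net change -0.18 ± 0.09 (adjusted p = 0.148). The net change ran from -0.10 to -0.27 over the alternatives and was called only with total count scaling.

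The 4 fork protection genes all fell, led by Timeless, which had the largest net change of the 50 genes (ENSMUSG00000039994, GRCm38 chromosome 10, 128232065 to 128252941). Timeless control libraries were at 152, 166, 142 and 152 CPM at day 0 and 178, 176, 150 and 154 at day 4. Its 8 Ogdh libraries at day 4 were at 45.8 to 57.6 CPM (median 54.8), a net change of -1.55 ± 0.12 (adjusted p = 5.77e-05) that leaves 34.1% of the level. Tipin, its binding partner, was at 156, 153, 139 and 148 CPM at day 4 in the control. With shOgdh346 Tipin was at 58.3, 58.0, 61.9 and 57.0 CPM, and with shOgdh2081 at 70.6 and 61.6 in clone 3 and 90.9 and 92.3 in clone 5. The net change of Tipin was -1.07 ± 0.10 (adjusted p = 1.59e-04). Clspn, Claspin, had -1.02 ± 0.13. Wdhd1, which links the helicase to polymerase alpha, had -0.76 ± 0.17 (adjusted p = 0.00863), with clone 5 of shOgdh2081 at 106 and 111 CPM at day 4 against 67.0 to 93.5 in the other Ogdh libraries. Its call was lost without either control clone, where fewer of all genes were called as well.

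The 2 Ogdh hairpins did not differ past the threshold in any of the 50 genes. The net change of shOgdh346 minus that of shOgdh2081 was negative in 47 genes with a median of -0.18, against 53.4% negative and a median of -0.02 over all genes. By edgeR's quasi-likelihood test 0 genes were called lower (0.0491% of all genes) and 0 higher (0.0561% of all genes). In that test 5 had an unadjusted p under 0.05, as did 1421 of all 14249 genes, a similar share. DESeq2 and limma-voom called 0 in either direction. With no filter on low counts, where 27754 genes were tested, 2 were lower. The share of all genes in that fit is not given here, so this count is not read as a difference between the hairpins. The smallest p belonged to Cdt1 (-0.55 ± 0.15, adjusted p = 0.266), Tipin (-0.43 ± 0.12, adjusted p = 0.279), Pold2 (-0.57 ± 0.19, adjusted p = 0.399) and Mcm2 (-0.29 ± 0.11, adjusted p = 0.438).

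Single clones stood at the ends of the range. Clone 1 of shOgdh346 had the lowest change of the 4 Ogdh clones in 35 of the 50 genes, where 28.9% of all genes had their lowest change there. Clone 5 of shOgdh2081 had the highest change in 39 of the 50, where 25.2% of all genes did. For shOgdh346 the median change of the 50 genes was -1.15 (clone 1) and -1.02 (clone 5), and for shOgdh2081 -1.03 (clone 3) and -0.80 (clone 5). Ogdh itself changed by -1.89, -1.43, -1.59 and -2.22 in the same order, so the clone with the deepest fall of Ogdh had the shallowest fall of the replication genes. With 4 clones no relation between them was tested.

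**Figure D3:**
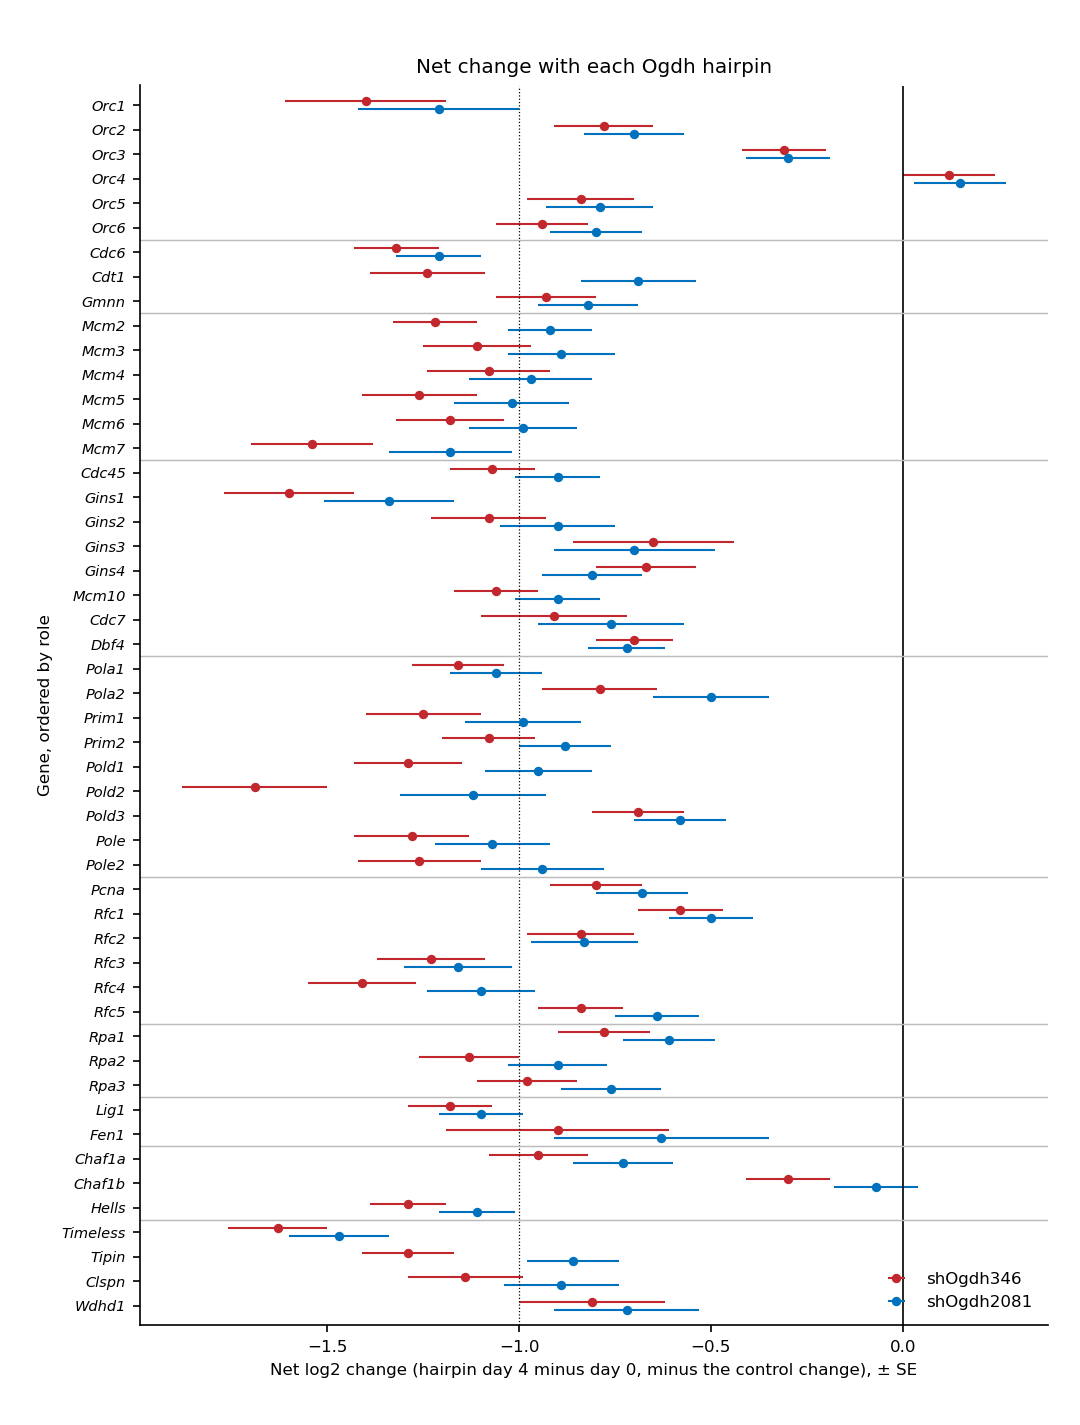
Net log2 change of each gene with shOgdh346 (red) and shOgdh2081 (blue), with standard errors; the solid line is no net change and the dotted line a net change of -1. Values of shOgdh346 lie to the left of those of shOgdh2081 in 47 genes.

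Within complexes, subunits were compared per kilobase of exon. In the MCM ring the highest subunit (Mcm6, 159 CPM per kb) stood 2.29 times over the lowest (Mcm2, 69.4) in the control at day 0. At day 4 these were 67.1 and 24.3 with shOgdh346 (2.76 times) and 74.2 and 30.8 with shOgdh2081 (2.41 times). In ORC the lowest subunit changed: Orc4 was lowest in the control at day 4 (5.94 CPM per kb) and Orc1 with shOgdh346 (2.31) and shOgdh2081 (2.79). In RFC, Rfc4 was the highest subunit in the control at day 4 (33.5 CPM per kb) and Rfc1 with shOgdh346 (20.6) and shOgdh2081 (21.7). Both changes of rank rest on the gene lengths used. In mean CPM of the control at day 4, Orc1 was already below Orc4 (22.9 and 44.3) and Rfc4 below Rfc1 (51.4 and 191). RPA subunits lay within 1.1 times of each other in the control at day 4 and within 1.55 times with shOgdh346. No ratio between subunits was tested, and mRNA ratios are not protein ratios.

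**Figure D4:**
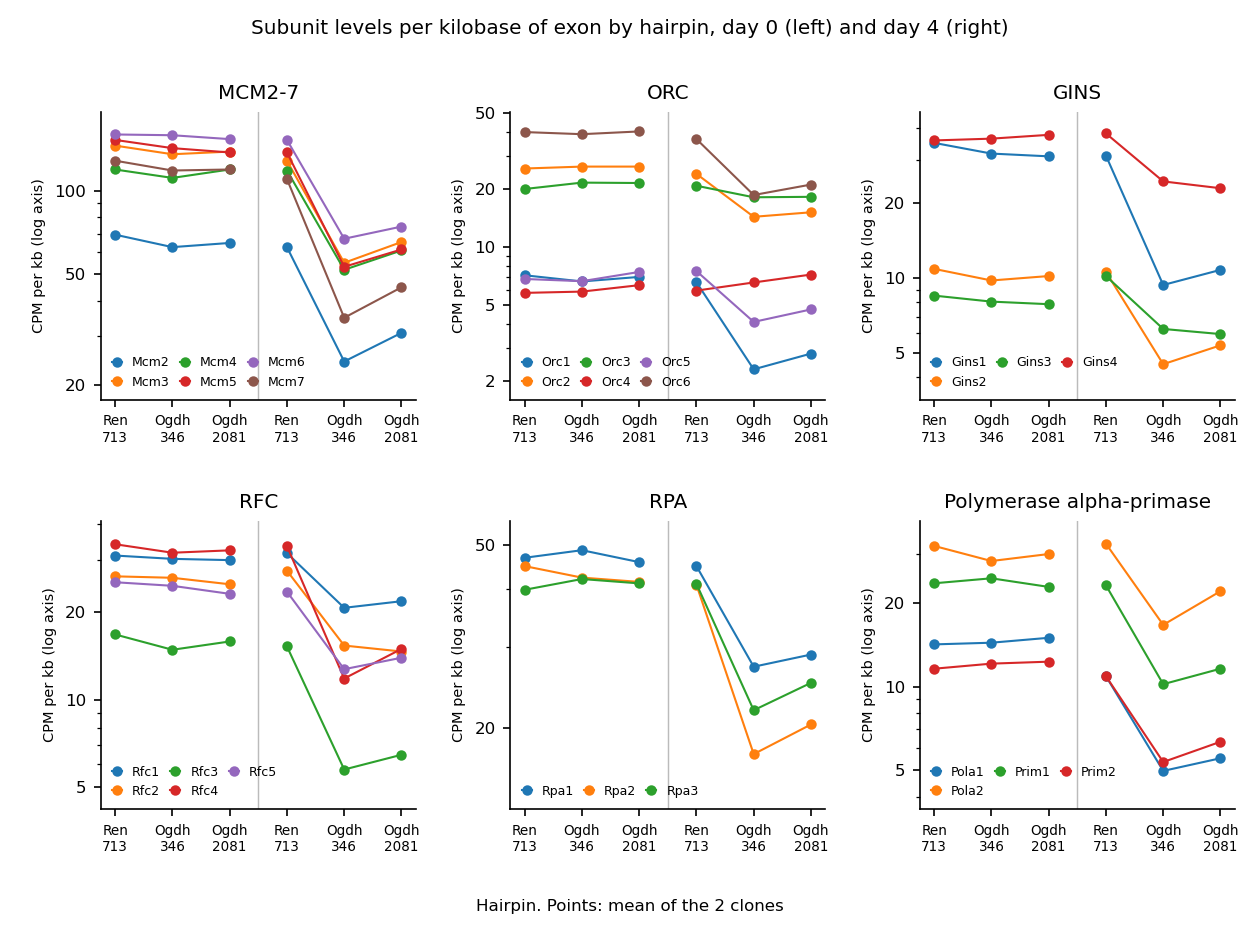
Level of each subunit of 6 complexes in CPM per kilobase (log axis) by hairpin at day 0 (left) and day 4 (right), as means of 2 clones. Lines run level across the hairpins at day 0 and drop from the control to both Ogdh hairpins at day 4, except for Orc4.

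Paired libraries of a clone differed in these genes before treatment. At day 0, replicate 2 was lower than replicate 1 in 12 genes (20.2% of all genes) and higher in 13 (21.7% of all genes), in a fit with the clone as a block. The differences ran from -0.27 in Cdt1 and Chaf1b to 0.41 in Cdc7, with Fen1 at 0.37, Chaf1a at 0.28 and Pold3 at 0.26. At day 4, 1 gene, Rpa3, was lower (2.77% of all genes; -0.17, adjusted p = 0.0226) and 2, Pole and Mcm7, were higher (4.35% of all genes; 0.12 and 0.07). What separates the numbered libraries is not given in the labels, and its part in the results was not tested. Across the 50 genes the day 0 difference and the net change had a Pearson r of 0.01, a description over genes that share libraries. A difference shared by all clones largely cancels once the control change is subtracted, so this r cannot show its part. It need not cancel in the change within 1 hairpin. In the control that change was 0.53 in Cdc7, -0.43 in Cdt1, -0.28 in Chaf1b, 0.25 in Pold3, 0.07 in Chaf1a and 0.01 in Fen1. The relation of these changes to the day 0 difference was not tested. With the day 0 libraries numbered 1 alone or 2 alone the median net change was -0.98 and -0.99.

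**Figure D5:**
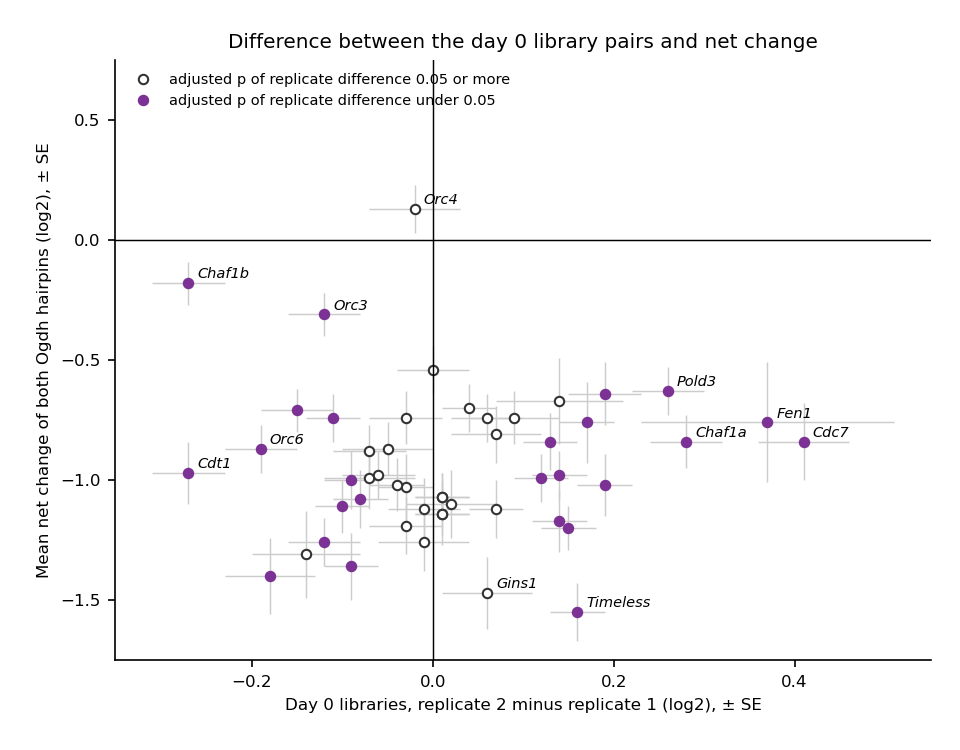
Difference between the day 0 libraries numbered 2 and 1 (horizontal, log2 ± SE) against net change, averaged over both Ogdh hairpins (vertical, log2 ± SE) for the 50 genes; filled points passed the test of the replicate difference. The day 0 differences spread from -0.27 to 0.41, with a Pearson r of 0.01 with the net change. A difference shared by all clones largely cancels in the net change, so this r cannot show its part.

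Neighbouring genes were counted on lists outside the 50, by net change averaged over both Ogdh hairpins, for which 19.8% of all genes were lower and 17.9% higher. Of 37 other replication factors 28 were lower and 1 higher (median -0.71): Uhrf1, which brings the maintenance methylase to new DNA, at -1.10 ± 0.10, Recql4 at -1.24 ± 0.13 and the histone chaperone Nasp at -1.05 ± 0.11 were lower, and Pold4, the small subunit of polymerase delta, was higher by 0.40 ± 0.11 (adjusted p = 0.0183; 0.0671 for shOgdh2081 alone). For nucleotide supply 11 of 13 genes were lower and 1 higher (median -0.89), among them Tk1 (-1.10 ± 0.09) and Dut (-1.21 ± 0.10). Samhd1, which breaks down deoxynucleotides, was the higher one, by 0.48 ± 0.10 (adjusted p = 0.00614; 0.0714 for shOgdh2081 alone). Among 28 tested E2F, RB and DREAM regulators 17 were lower, such as Ccna2 (-1.18 ± 0.09), Skp2 (-1.07 ± 0.11) and E2f6 (-1.02 ± 0.11). The 3 that were higher, a smaller share than among all genes, were the cell cycle inhibitors Cdkn1b (0.66 ± 0.12), Rb1 (0.56 ± 0.14) and Cdkn1a (1.62 ± 0.40, adjusted p = 0.0313; 0.0665 for shOgdh346 alone). Part of the net change of Skp2 came from the control, where Skp2 rose by 0.48 ± 0.09 (adjusted p = 0.0162). At day 0 the libraries numbered 2 were above those numbered 1 by 0.43 in Skp2. The part of this difference in the control rise was not tested. Its own changes were -0.70 with shOgdh346 and -0.49 with shOgdh2081.

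Of 26 mitotic genes 26 were lower (median -0.80), led by Cenpf (-1.39 ± 0.09), Ccnb1 (-1.03 ± 0.09) and Ccnb2 (-1.27 ± 0.12). Of 13 tested DNA polymerase genes outside the replicative set 4 were lower and 1 higher, with a median of -0.25, counts not far from the shares of all genes. Polq had a net change of -1.07 ± 0.12 and fell with both Ogdh hairpins. Poli, at -0.63 ± 0.13, came with a rise of 0.54 ± 0.11 in the control (adjusted p = 0.0221), and its own changes, -0.15 with shOgdh346 and -0.03 with shOgdh2081, were not called. For Poll (-0.66 ± 0.17) the changes were 0.34 in the control, -0.32 with shOgdh346 and -0.33 with shOgdh2081, none called. Poln was higher by 1.38 ± 0.46 (adjusted p = 0.0404; 0.1 for shOgdh2081 alone). These lists are set beside the 50 genes as counts, and no list was tested against another.

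Shared exons bear on some members, since the strand setting of the counting is not given in the sources used here. By the GENCODE M21 annotation 19 of the 50 genes share exon bases with another gene and 9 share over 10%. After Fen1 the largest shares are Gins2 (67.3%, with Gse1, whose own net change was 0.57 ± 0.09), Chaf1a (52.5%, with Ubxn6, 0.27 ± 0.12) and Orc2 (29.8%, with Nif3l1, -0.05 ± 0.15). The deposited length equals the M21 exon length in 45 of the 50 genes. Chaf1a is not among them: its 118 CPM and 35.6 CPM per kb (control, day 0) imply a length well under its 8854 M21 exon bases. The share given for Chaf1a may thus not apply to the exons that were counted. Rfc5 shares 10.7% with Wsb2, which rose by 1.13 ± 0.15 (adjusted p = 5.95e-04). Values of these 9 genes are uncertain to the extent that reads in the shared bases were split or lost.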

How the data were processed

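PolyA RNA of the 24 RN2 libraries was read as single ends, per the labels' protocols. The authors deposited raw counts for Ensembl genes, as whole numbers. Tools listed in the submitters' processing notes are featureCounts (1.6.3), STAR (2.6.1a), Trimmomatic (0.36) and FastQC (0.11.5), with mm10 (GRCm38). The extract protocol names another build, counter and unit, which whole numbers under mouse identifiers do not match. Neither strand setting nor annotation release is given in the sources used here. The deposited transcript length, in bases, served for CPM per kb.

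For each clone and day both libraries were added up (12 sums), filtered with filterByExpr (14249 of 53465 genes kept) and scaled by TMM. edgeR 4.0.16 (R 4.3.3) tested changes by robust quasi-likelihood in a model of clone plus 1 day effect for each hairpin, with 3 residual and, as the median, 6.11 prior degrees of freedom. The labels say which clone a sample came from, which pairs the days; deviations of clones from their hairpin's mean correlated between days, across genes, at 0.84, 0.60 and 0.67. Levels within a day used 6 groups on these sums; each clone enters at both days, so 6 residual degrees of freedom are too many. Library pairs were compared in a fit on the 12 libraries of a day. Their chi-square per gene, over genes with at least 20 counts, was 6.78 to 10.3 at day 0 and 1.60 to 2.94 at day 4, so none was a repeat of 1 library. Errors are SE of the fit, or SD over 2 clones. Scripts were tested on simulated data. Alternatives used limma 3.58.1 and DESeq2 1.42.0.

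The 50 genes and all lists were chosen with earlier results of these data known. Every member is accounted for. Described by library are the smallest and the largest p of each role group, the 4 smallest p between hairpins and members not lower; Cdc7 was added after its values were seen. Of genes outside, up to 3 of each list with the smallest p and any called against the list's direction are named; 1 such gene is not reported here.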

Additional observations from a re-analysis of the deposited data

Results flagged for a closer look

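Among the 22 genes described by library, 4 of 132 groups of 4 libraries held a library that stood apart from the other 3 by a test of the gap. Chance flags about 1 group in 20 if the 4 libraries are independent, which libraries paired by clone are not. Cdt1 was at 167 CPM in replicate 1 of shOgdh2081 clone 5 at day 0, where the other 3 libraries were at 142 to 143. Replicate 1 was also the higher of its Cdt1 pair in the other clones at day 0, except clone 3 of shOgdh2081, at 142 CPM in both. Rfc1 was at 204 CPM in replicate 1 of shRen713 clone 2 at day 4, against 184 to 187. In the same library Rfc4 was at 44.7 CPM, against 52.7 to 53.8. Fen1 was at 6.90 CPM in replicate 2 of shOgdh2081 clone 5 at day 0, against 4.16 to 4.58.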

How the results depend on the processing

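Of the 48 genes called lower in the mean net change, 42 kept the call in all 42 alternatives and 6 (Orc3, Gins3, Pola2, Pold3, Fen1 and Wdhd1) lost it in at least 1. Without either control clone, 1 control clone is left and fewer of all genes were called lower. Calls lost there are thus not particular to these members. With both clones of each hairpin kept, the count of lower genes ran from 44, without the clone as a block, to 49, with total count scaling. Of all 14249 genes tested, 1603 and 3448 were lower in these settings, in that order. The median ran from -0.91 to -1.07 over all alternatives, and that of all genes was -0.09 with total count scaling. Without the block, 43 of the 50 genes were lower for shOgdh346 and 33 for shOgdh2081, with no share of all genes given here. Calls fell over all genes as well: for the mean net change 2818 were lower with the block and 1603 without it. The smaller counts are thus not read as a result about the 50 genes. Control calls were few and moved. With all libraries and the block, 2.44% of all genes were lower and 4.44% higher in the control. Shares in the alternatives are not given here, so these small counts are not read as a result about the 50 genes. Lower genes were 0 without the block and 1 with total count scaling. They were also 0 with libraries numbered 2 alone, at day 0 or at both days. Higher genes were 0 without the block, with upper quartile scaling, at 5 CPM and with libraries numbered 2, and 3 with libraries numbered 1, alone at day 0 or at both days. Leaving out 1 clone or library moved the control calls as well. Between the day 4 library pairs, where only whole clones were left out, 0 to 3 genes were lower and 0 to 3 higher. Without control clone 7, 0 were lower there. With all clones, 2.77% of all genes were lower and 4.35% higher between these pairs. With no filter, among 27754 genes tested, 2 of the 50 were lower in shOgdh346 than in shOgdh2081, again with no share of all genes. No net change of a called member reversed. Precision is limited by 2 clones per hairpin, and for Fen1 by its low level.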
